A study of Mus musculus with 18 samples.

Results

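The Cxcl12 chemokine axis comprises the secreted chemokine CXCL12 and its receptors CXCR4 and ACKR3, encoded by Cxcl12, Cxcr4 and Ackr3. The genes were taken by symbol, and every probe set annotated with 1 of these symbols alone was used. This gave 6 probe sets for 3 genes, 4 for Cxcl12 and 1 each for Cxcr4 and Ackr3, among 29131 probe sets with 1 symbol for 15964 genes. GFP-positive cells, representing endothelium, were compared with GFP-negative cells, representing the rest of the retina. Both populations came from retinas of homozygous Tie2-GFP transgenic FVB/N mice at postnatal day 8, which were pooled, digested with papain and sorted by flow cytometry. The Tie2 promoter that drives the GFP is active in endothelium, and it is also known to be active in some blood-derived cells. Amplified RNA was hybridised to Affymetrix MGU74v2 arrays. The set has 3 chips, A, B and C, and each population was run on 3 arrays of each.

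CXCL12 binds heparan sulphate and forms gradients along which cells migrate. CXCR4 couples to inhibitory G proteins and drives that migration, and in mice CXCL12 and CXCR4 are required for the growth of several vascular beds. ACKR3, formerly CXCR7, takes CXCL12 up and degrades it, signals through beta-arrestin rather than G proteins, and also binds CXCL11 and adrenomedullin. In mouse tissues Cxcl12 is known from arterial endothelium, perivascular and stromal cells, and Cxcr4 from leukocytes, neural progenitors and sprouting endothelium.

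Cxcl12 lies on chromosome 6 (GRCm38.p6, 117168535 to 117181368), and the receptor genes lie on chromosome 1, Cxcr4 at 128588199 to 128592299 and Ackr3 at 90203980 to 90215724. The 250 bases before each annotated start are shown 5′ to 3′ on the gene's strand, from RefSeq, so that the ligand gene and the receptor genes can be compared in the letters before their starts. Capitals mark matches on either strand, and overlapping matches run together. The letters GGGCGG stood for the GC box. The letters TATAAA stood for the TATA box, and the letters ACAAT for the SOX core.

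Cxcl12, chr6:117168285-117168534, plus strand: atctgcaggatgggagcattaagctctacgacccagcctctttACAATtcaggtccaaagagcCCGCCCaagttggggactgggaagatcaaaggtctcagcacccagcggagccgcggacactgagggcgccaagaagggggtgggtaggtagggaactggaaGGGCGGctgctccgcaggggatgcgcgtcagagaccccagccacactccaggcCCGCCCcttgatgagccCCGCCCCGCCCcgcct
Cxcr4, chr1:128592300-128592549, minus strand: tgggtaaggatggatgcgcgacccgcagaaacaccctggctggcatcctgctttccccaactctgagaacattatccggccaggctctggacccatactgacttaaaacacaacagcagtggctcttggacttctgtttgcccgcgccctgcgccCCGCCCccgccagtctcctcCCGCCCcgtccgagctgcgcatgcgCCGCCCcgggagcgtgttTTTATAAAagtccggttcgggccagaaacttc
Ackr3, chr1:90203730-90203979, plus strand: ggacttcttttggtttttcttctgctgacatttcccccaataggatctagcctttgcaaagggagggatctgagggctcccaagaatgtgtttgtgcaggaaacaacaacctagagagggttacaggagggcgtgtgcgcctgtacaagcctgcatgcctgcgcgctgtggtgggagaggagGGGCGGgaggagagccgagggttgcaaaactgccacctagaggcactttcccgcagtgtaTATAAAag

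The Cxcl12 window had 5 matches to the GC box, that of Cxcr4 had 3 and that of Ackr3 had 1, and 32.7% of 32851 RefSeq windows of this length held at least 1. The TATA box matched in the Cxcr4 and Ackr3 windows and not in that of Cxcl12, and 12.4% of windows held it. In that of Cxcr4 it began 32 and 30 bases before the start, on opposite strands, and in that of Ackr3 it began 8 bases before. The windows were 64.4% G and C for Cxcl12, 61.2% for Cxcr4 and 54.0% for Ackr3. The Cxcl12 window alone of these had the SOX core, which 27.7% of windows held. Neither the hypoxia-inducible factor core ACGTG nor the ETS core CCGGAA occurred in any of the 3 windows, against 16.6% and 12% of windows that held them. The letters searched for were chosen with the sequences in view, and a match is a description of these letters only.

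The sort separated the populations by their markers, and 1 array stood apart. Tek, which encodes Tie2, averaged 442 ± 174 in GFP-positive and 8.23 ± 1.46 in GFP-negative cells (SD, n = 3 arrays each, as for all such pairs), and 12 of 15 endothelial markers were higher in GFP-positive cells, led by the junction gene Cldn5 (6.21), Cd93 (6.02) and Eng (5.96), and none lower, also at an unadjusted p under 0.05 (limma). Kdr, a VEGF receptor gene, was the brightest of the 3 that did not pass, at 2235 ± 233 in GFP-positive and 2245 ± 503 in GFP-negative cells. Array medians ranged from 43.3 to 44.5 intensity units on chip A and from 40.7 to 44.6 on chip B. GFP-positive replicate 3 stood apart on all 3 chips, with Spearman coefficients across probe sets of 0.911 to 0.929 against the other GFP-positive arrays, where all other pairs within a population had 0.960 to 0.987. Whether arrays of the same population stand for different animals is not in the labels, and p-values here cover the spread between arrays alone, which may be technical.

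Cxcl12, the ligand gene, was higher in GFP-positive cells on 2 of its 3 chip A probe sets, and the third, together with the chip B probe set, did not pass the test. Probe set 162234_f_at had intensities of 557, 446 and 364 on GFP-positive arrays 1, 2 and 3, against 31.4, 14.1 and 14.0 on GFP-negative arrays 1, 2 and 3. The dimmest GFP-positive array was thus far above the brightest GFP-negative one. The log2 difference was 3.73 (SE 0.24, 95% interval 3.16 to 4.31, adjusted p = 0.000323, limma with Benjamini-Hochberg adjustment over the chip). Here and below a difference is GFP-positive minus GFP-negative on log2 of intensity plus 16, which understates changes of dim probe sets, and a probe set was called at an adjusted p under 0.05. Without GFP-positive replicate 3 the difference was 3.88 (adjusted p = 0.000436). In bulk samples, fewer cells of a type and less RNA per cell cannot be told apart. The suffix of this probe set marks probes that may also match related transcripts.

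Probe set 100112_at, which carries no such suffix, had intensities of 281, 162 and 72.5 on GFP-positive arrays 1, 2 and 3, against 19.5, 11.5 and 9.45 on GFP-negative arrays 1, 2 and 3. The populations again did not overlap, although the GFP-positive arrays spread widely, with replicate 3 lowest. The difference was 2.52 (SE 0.44, 95% interval 1.45 to 3.59, adjusted p = 0.0119, limma). It was 2.98 without GFP-positive replicate 3 (adjusted p = 0.00123). It was no longer called when GFP-negative replicate 2 (2.48, adjusted p = 0.0518) or GFP-negative replicate 3 (2.42, adjusted p = 0.0567) was left out.

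Probe set 160511_at gave a different picture of the same gene. It read 45.3, 31.9 and 34.3 on GFP-positive arrays 1, 2 and 3, against 82.3, 23.5 and 30.9 on GFP-negative arrays 1, 2 and 3. The populations overlapped, and GFP-negative replicate 1 was the brightest array. The difference was -0.10 (SE 0.35, 95% interval -0.95 to 0.75, adjusted p = 0.886, limma), and it was 0.30 without GFP-negative replicate 1 (adjusted p = 0.343). Its interval did not reach those of 162234_f_at and 100112_at, so the probe sets of Cxcl12 disagreed by more than the spread between arrays. Apart from GFP-negative replicate 1, the values of 160511_at lay below 46.4, the median of the mean intensities on chip A. They may be background, so this probe set does not show that Cxcl12 was alike in the populations.

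On chip B, probe set 105704_at read 42.1, 40.9 and 44.3 on GFP-positive arrays 1, 2 and 3, against 36.0, 40.1 and 36.6 on GFP-negative arrays 1, 2 and 3. All GFP-positive arrays lay above the GFP-negative ones, by a small margin. The difference was 0.13 (SE 0.08, 95% interval -0.07 to 0.33, adjusted p = 0.327, limma), close to the median difference of all chip B probe sets, 0.09. Every value lay below 46.0, the median of the mean intensities on chip B, and may be background.

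**Figure D1:**
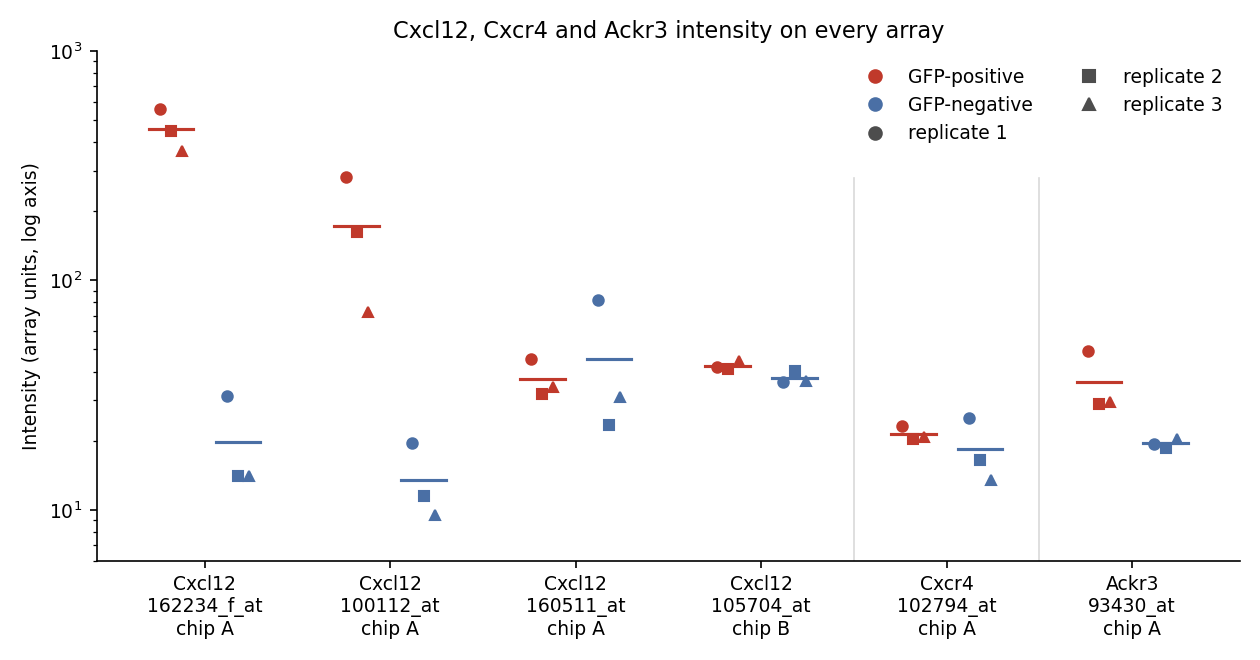
Intensity (log axis, array units) of every Cxcl12, Cxcr4 and Ackr3 probe set, with 1 point per array and a line at the mean of each population, GFP-positive in red and GFP-negative in blue. The GFP-positive points of Cxcl12 162234_f_at (364 to 557) and 100112_at (72.5 to 281) lie above all GFP-negative points, while Cxcr4 lies between 13.5 and 25.1 in both populations.

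Cxcr4, the receptor gene through which CXCL12 drives migration, was dim in both populations and was not called. Its probe set 102794_at read 23.2, 20.3 and 20.8 on GFP-positive arrays 1, 2 and 3, against 25.1, 16.5 and 13.5 on GFP-negative arrays 1, 2 and 3. The brightest and the dimmest arrays were both GFP-negative, so the populations overlapped. The difference was 0.14 (SE 0.13, 95% interval -0.19 to 0.46, adjusted p = 0.569, limma). All 6 values lay below 46.4, the median of the mean intensities on chip A, and detection calls were not used here, so these values may be background and do not show that the populations were alike.

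Ackr3, the scavenging receptor gene, was brighter on every GFP-positive array but did not pass the test. Its probe set 93430_at read 49.2, 29.0 and 29.4 on GFP-positive arrays 1, 2 and 3, against 19.4, 18.6 and 20.4 on GFP-negative arrays 1, 2 and 3. GFP-positive replicate 1 stood well above the other arrays of its population, and the GFP-negative arrays lay close together. The difference was 0.53 (SE 0.16, 95% interval 0.14 to 0.91, adjusted p = 0.0718, limma). Without GFP-positive replicate 1 it was smaller and called (0.35, adjusted p = 0.0396), and without GFP-positive replicate 3 it was also called (0.61, adjusted p = 0.0435). It was called as well with a pseudocount of 1 (0.81, adjusted p = 0.0442), with limma-trend and robust moderation (adjusted p = 0.0431) and with array weights (0.47, adjusted p = 0.0404). Under the other alternatives in which it was tested, it was not called. Among them were quantile normalization (0.51, adjusted p = 0.085), a pseudocount of 64 (0.25, adjusted p = 0.114) and each GFP-negative array left out (adjusted p of 0.179 to 0.193, limma). Apart from GFP-positive replicate 1, the values of this probe set lay below 46.4, the median of the mean intensities on chip A, and may be background.

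On chip A, 2 of the 5 probe sets of the axis were called higher, both of Cxcl12, where 9.09% of all chip A probe sets were. Without overlap, 3 of 5 were higher in GFP-positive cells, where 19.8% of all were. On chip B the single probe set was not called, where 9.60% of all were called higher, and it was higher without overlap, as 25.7% of all were. No probe set of the axis was called lower by limma, and none was lower at an unadjusted p under 0.05. In both populations, replicate 1 was the brightest array on all 3 chip A probe sets of Cxcl12 and on Cxcr4, and Ackr3 had its brightest GFP-positive value on replicate 1 too. With the replicate number as a block no call of the axis changed.

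**Figure D2:**
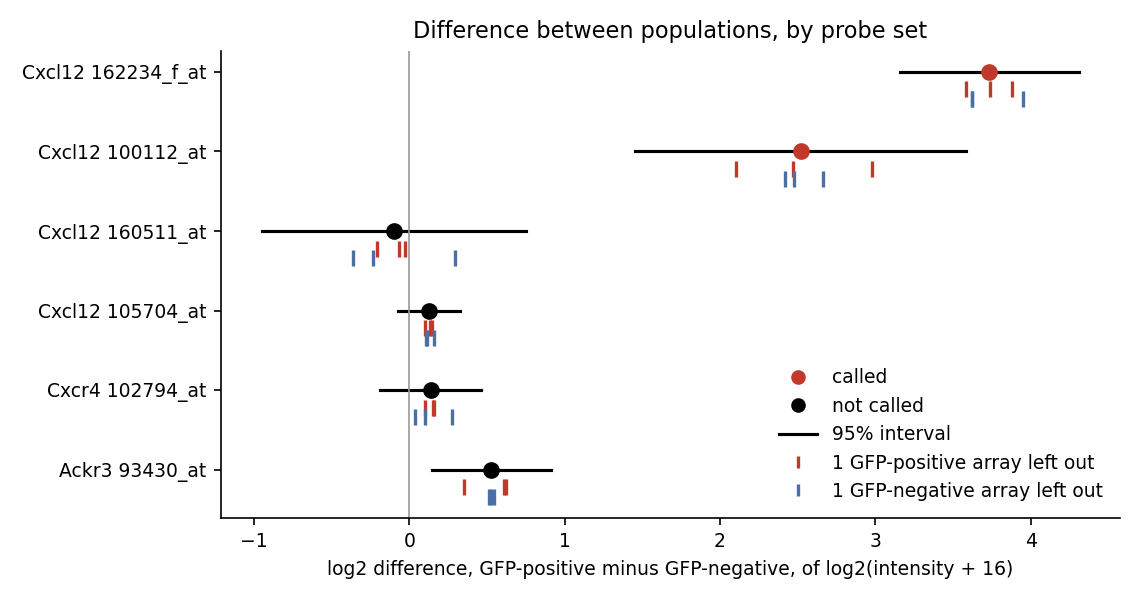
Log2 difference, GFP-positive minus GFP-negative, with its 95% interval for each probe set (horizontal axis, log2 units). Red points are called at an adjusted p under 0.05, black points are not, and ticks below each point show the difference with 1 array left out. The differences of Cxcl12 162234_f_at and 100112_at stay above 2 with any array left out, and those of 160511_at fall on both sides of 0.

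By the correlation of log2 values over the 6 arrays of chip A, the genes most like Cxcl12 162234_f_at were Ppm1m, Rps18 and H2-D1 (Pearson's r of 0.998 for each). Ppm1m, a protein phosphatase gene, averaged 112 ± 14.6 in GFP-positive and 36.0 ± 4.46 in GFP-negative cells. H2-D1, a class I antigen-presenting molecule, averaged 302 ± 48.6 in GFP-positive and 54.1 ± 9.79 in GFP-negative cells, and the ribosomal protein gene Rps18 averaged 3340 ± 173 in GFP-positive and 1584 ± 78.0 in GFP-negative cells. Those most like Cxcr4 were Ddx3x (r = 0.977), Txnip (r = 0.964) and Nde1 (r = 0.958), none of them called. Those most like Ackr3 were Mfhas1 (r = 0.995), Dynlt1b (r = 0.992) and Gpr143 (r = 0.991), of which Mfhas1 was called higher (0.52, adjusted p = 0.0457, limma). The arrays fall into 2 populations, so a coefficient for Cxcl12 mainly follows the step between them, and it is given as a description.

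Other cell types could carry Cxcl12 or its receptors, and their markers were measured on the same arrays. Pericyte and smooth muscle markers, which include genes of cells known to make CXCL12, were called in neither direction for any of 12 measured genes (limma), and 1 was lower and none higher at an unadjusted p under 0.05. Their 11 genes on chip A summed to between 323 and 420 on GFP-positive arrays and between 377 and 426 on GFP-negative arrays, and the summed ranges overlapped. Rgs5, a pericyte regulator of G protein signalling and the brightest of them, averaged 56.5 ± 40.1 in GFP-positive and 60.6 ± 9.48 in GFP-negative cells, and was called lower without GFP-positive replicate 3 (-0.63, adjusted p = 0.0143). Of 8 fibroblast and meningeal markers, the forkhead gene Foxc1 (0.82) and the matrix gene Lum (0.28) were called higher and 1 was lower. Of all genes, each measured by its brightest probe set on the first chip that held it, 9.43% were called higher and 11.3% lower. Foxc1 was dim, at 14.8 ± 3.25 in GFP-positive and 1.39 ± 0.531 in GFP-negative cells. The call of Lum was lost without any 1 of the 6 arrays. The 8 genes summed to 280, 278 and 1120 on GFP-positive arrays 1, 2 and 3, against 936, 535 and 545 on GFP-negative arrays 1, 2 and 3. The collagen gene Col1a2 gave most of the sum on GFP-positive replicate 3, at 44.1, 42.9 and 786 on GFP-positive arrays 1, 2 and 3, against 75.5, 92.3 and 77.2 on GFP-negative arrays 1, 2 and 3, and it was called lower without that array (-0.71, adjusted p = 0.00541). Its probe set carries the suffix r and was left out with the cross-matching ones. Pdgfra, a receptor gene also known from retinal astrocytes, was the one that was lower, at 20.2 ± 3.35 in GFP-positive and 418 ± 246 in GFP-negative cells.

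Microglia and leukocyte markers, which matter here because leukocytes use CXCR4, were called higher for 5 of 26 measured genes (9.43% of all genes were) and lower for none, also at an unadjusted p under 0.05 (limma). Lcp1, an actin-bundling protein gene of leukocytes, averaged 1047 ± 194 in GFP-positive and 20.2 ± 4.94 in GFP-negative cells, and the lysosomal gene Laptm5 averaged 155 ± 27.0 in GFP-positive and 41.5 ± 1.77 in GFP-negative cells. Ptprc, which encodes the pan-leukocyte marker CD45, averaged 40.1 ± 14.6 in GFP-positive and 38.0 ± 3.65 in GFP-negative cells and was not called (adjusted p = 0.945, limma), nor were Aif1, Cx3cr1 or Tyrobp. The 26 genes summed to between 2186 and 3420 on GFP-positive arrays and between 963 and 1037 on GFP-negative arrays, of which Lcp1 gave 908 to 1268 on GFP-positive and 15.5 to 25.3 on GFP-negative arrays. None of these markers, or of the pericyte and fibroblast markers, was listed at 0 on any array, and the part of any such cells in the Cxcl12 difference was not tested. Of the 5 called higher, the Fc receptor subunit gene Fcer1g lost its call without any 1 of 4 arrays and the B cell gene Ms4a1 without any 1 of 5, all 3 GFP-negative arrays among them for both, so that 3 to 5 were higher with 1 array left out. The probe sets of Fcer1g and Laptm5 carry the cross-matching suffix f. That of C1qb, also higher (0.78), carries the suffix i, and C1qa (0.16) and C1qc (0.06) were not called. Csf1r, the brightest marker that did not pass, averaged 336 ± 514 in GFP-positive and 105 ± 9.36 in GFP-negative cells, and without GFP-positive replicate 3 it was lower (-1.13, adjusted p = 0.00108). Its probe set carries the suffix r too. Markers of retinal neurons and glia were mostly lower in GFP-positive cells or did not pass. None was higher and 4 of 8 astrocyte, 6 of 11 Müller glia, 3 of 9 photoreceptor and 2 of 10 bipolar, amacrine and horizontal markers were lower, where 11.3% of all genes were. With 1 array left out the lower counts were 3 to 4 for astrocytes, 4 to 7 for Müller glia, 0 to 3 for photoreceptors and 1 to 3 for the interneurons. Slc1a3 is among the lower genes of both the astrocyte and the Müller glia list. The photoreceptor count was 0 without GFP-positive replicate 1, GFP-negative replicate 1 or GFP-negative replicate 3. Of 11 ganglion cell markers 2 were higher and 2 lower, and with any 1 GFP-negative array left out none was higher. None of 7 red cell and platelet markers was called (limma), with 2 higher and 1 lower both at an unadjusted p under 0.05 and, after adjustment, without GFP-positive replicate 3.

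Among arterial and tip cell markers, whose cells are known sources of CXCL12 and CXCR4, most were higher in GFP-positive cells. Of 11 arterial markers 7 were higher, among them the receptor gene Unc5b (3.05), the transcription factor gene Sox17 (3.01) and the semaphorin and VEGF coreceptor gene Nrp1 (2.44). The other 4 did not pass, of which the ephrin gene Efnb2, the brightest, averaged 1418 ± 403 in GFP-positive and 1955 ± 122.8 in GFP-negative cells (-0.50), with every GFP-positive array below every GFP-negative one. Hey1 differed by -0.69, Gja5 by 0.15 and Notch4 by 0.06, and with any 1 GFP-negative array left out Acvrl1 (1.31) lost its call and 6 arterial markers were higher. Of 11 tip cell markers 8 were higher, among them Igfbp3 (4.63) and the laminin gene Lamb1 (4.32). Among all genes 9.43% were called higher. The tip cell marker Plaur (0.60) lost its call when any array but GFP-positive replicate 1 was left out. Without GFP-positive replicate 1, Dll4 was called higher too (0.89, adjusted p = 0.0455, limma). None of either list was lower, also at an unadjusted p under 0.05 (limma), and Unc5b stands in both. The comparison was between whole populations and so does not place Cxcl12 in any kind of endothelial cell.

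The other chemokine ligands gave few differences. Of 36 listed genes 31 were measured, each by its brightest probe set on the first chip that held it. Of these 2 were called higher and none lower, against the 9.43% higher and 11.3% lower of all genes. At an unadjusted p under 0.05, 4 were higher and 1 lower. The median difference was 0.00, against 0.04 for all genes. Cxcl1, a neutrophil-attracting chemokine, averaged 1159 ± 481 in GFP-positive and 93.9 ± 25.7 in GFP-negative cells (3.35, SE 0.37, adjusted p = 0.00214, limma). A second Cxcl1 probe set averaged 365 ± 204 in GFP-positive and 28.7 ± 8.98 in GFP-negative cells and was also called (2.94). Cxcl2, a close relative, averaged 249 ± 132 in GFP-positive and 15.9 ± 7.67 in GFP-negative cells (2.92, adjusted p = 0.00891, limma). These ligands bind CXCR2 rather than CXCR4. Cxcl16 was the brightest ligand that did not pass, at 267 ± 5.23 in GFP-positive and 273 ± 20.5 in GFP-negative cells. Of the 31 genes, 21 had a mean intensity below the median of their chip. Without GFP-positive replicate 3, Ccl1 was also called higher (0.36) and Pf4 lower (-0.41).

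Of the other chemokine receptors, 18 of 22 were measured. Of these 1 was called higher and 1 lower, where 9.43% of all genes were higher and 11.3% lower. Ccrl2, an atypical receptor that presents the attractant chemerin, averaged 50.5 ± 3.78 in GFP-positive and 29.8 ± 2.36 in GFP-negative cells (0.54, SE 0.08, adjusted p = 0.00645, limma). Ackr1, a chemokine-binding receptor known from venular endothelium and red cells, averaged 42.8 ± 1.74 in GFP-positive and 67.2 ± 6.05 in GFP-negative cells (-0.50, SE 0.08, adjusted p = 0.00925, limma). Ackr4, the brightest that did not pass, averaged 109 ± 20.2 in GFP-positive and 88.7 ± 10.1 in GFP-negative cells. Without GFP-positive replicate 3, Cxcr3 was also called lower (-0.29, adjusted p = 0.0373).

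**Figure D3:**
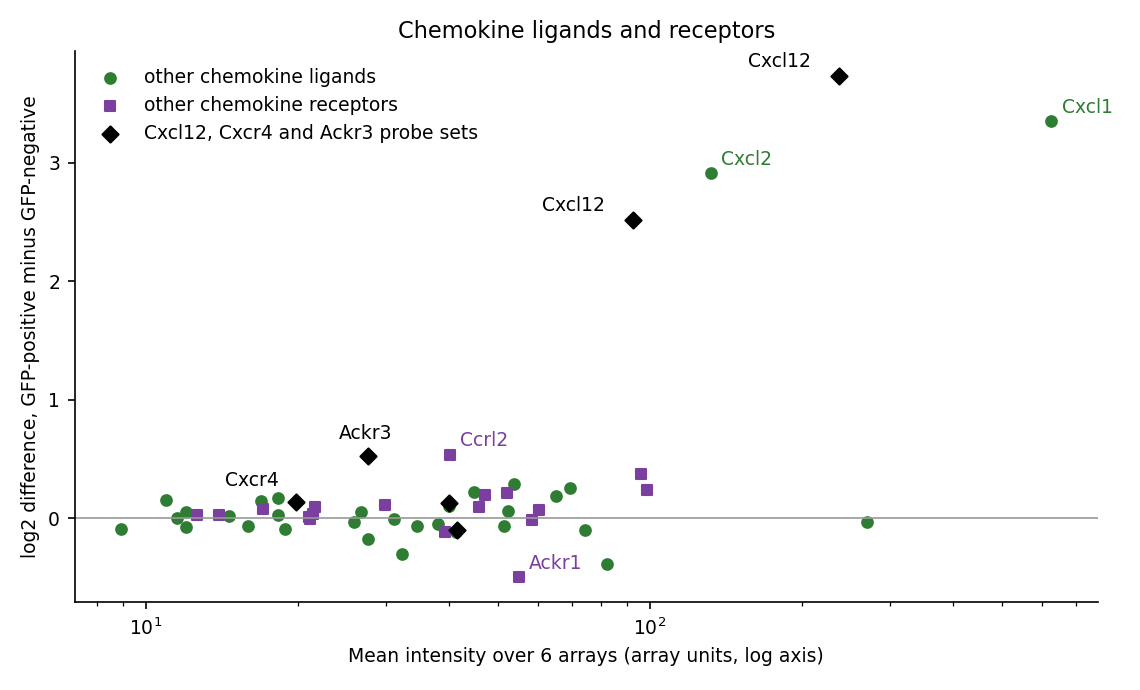
Log2 difference, GFP-positive minus GFP-negative, against mean intensity over the 6 arrays (log axis), for the 31 other chemokine ligands, the 18 other chemokine receptors and the 6 probe sets of the Cxcl12 axis. Cxcl1, Cxcl2 and the called Cxcl12 probe sets lie at 2.52 to 3.73, and all other points lie between -0.50 and 0.54.

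Alternative ligands and partners of CXCR4 and ACKR3 went both ways, with 2 of 10 measured genes higher and 2 lower. The shares over all genes were 9.43% higher and 11.3% lower. Ramp2, which pairs with the receptor for adrenomedullin, averaged 510 ± 156 in GFP-positive and 43.8 ± 3.54 in GFP-negative cells (3.09, adjusted p = 0.000626, limma). Adm, encoding adrenomedullin, averaged 58.0 ± 15.9 in GFP-positive and 23.2 ± 1.35 in GFP-negative cells (0.89, adjusted p = 0.0166, limma), a call that ended without any 1 of the GFP-negative arrays (adjusted p of 0.0558 to 0.0710). A second Adm probe set differed by 0.29 and was not called. The tetraspanin gene Cd63 averaged 51.3 ± 6.65 in GFP-positive and 470.0 ± 65.8 in GFP-negative cells (-2.85), and Cd9 differed by -0.41, a call lost without any 1 of 5 arrays (all but GFP-positive replicate 3). Mif, a cytokine that also binds CXCR4, averaged 50.7 ± 9.12 in GFP-positive and 41.7 ± 2.996 in GFP-negative cells and was called higher without GFP-positive replicate 3 (0.32, adjusted p = 0.0319).

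Genes that process CXCL12 or hold it on heparan sulphate were called higher for 2 and lower for 2 of 18 measured genes. Among all genes 9.43% were called higher and 11.3% lower. Sulf1, a sulphatase that trims heparan sulphate, averaged 20.4 ± 2.57 in GFP-positive and 268 ± 90.3 in GFP-negative cells (-2.92, SE 0.21, adjusted p = 0.000221, limma). A second Sulf1 probe set on chip B differed by -3.02. Gpc1, a heparan sulphate proteoglycan gene, differed by -1.15, while its other 3 probe sets, not called, lay the other way at 0.21, 0.46 and 0.56. Without GFP-positive replicate 3 the 0.46 became -0.65, not called. The 0.56 then became 0.79, called higher (adjusted p = 0.00115, limma) and so opposite to the call of the listed probe set. That listed probe set, on chip A, averaged 48.8 ± 6.57 in GFP-positive and 128 ± 13.9 in GFP-negative cells. The one at 0.56, on chip C, was brighter, at 331 ± 85.6 in GFP-positive and 213 ± 10.4 in GFP-negative cells. Hspg2, encoding perlecan, averaged 70.2 ± 2.30 in GFP-positive and 50.3 ± 1.71 in GFP-negative cells (0.38, adjusted p = 0.0110, limma), a call lost without GFP-negative replicate 1 (adjusted p = 0.0519). The call of the sulphotransferase gene Hs6st1 (0.62) was lost without any 1 of 5 arrays (all but GFP-positive replicate 3). Dpp4, whose protease inactivates CXCL12, averaged 26.8 ± 0.859 in GFP-positive and 22.1 ± 1.71 in GFP-negative cells and was not called, and the syndecan gene Sdc3 was the brightest that did not pass (0.42, and -0.02 without GFP-positive replicate 3). Without GFP-positive replicate 3, Sdc2 (-0.57) and the gelatinase gene Mmp2 (-0.36) were called lower too.

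Receptor signalling, desensitization and trafficking genes were called higher for 6 and lower for 2 of 41 measured, where 9.43% of all genes were higher and 11.3% lower. Without probe sets that carry a suffix of f, s, r, g, i or x, 3 were higher. The probe sets of Gnai2, Jak3 and Arrb1 described here carry f or s, which mark cross-matching. Gnai2, an inhibitory G protein subunit of the kind CXCR4 uses, averaged 2950 ± 240 in GFP-positive and 751 ± 5.05 in GFP-negative cells (1.95, SE 0.08, adjusted p = 7.31e-05, limma). Its other 2 probe sets differed by 0.66 and 0.92 and were not called. Gnao1, a neural relative, averaged 67.0 ± 22.5 in GFP-positive and 1139 ± 346 in GFP-negative cells (-3.78), and of its other 4 probe sets 1 was also lower (-0.89) and 3 were not called. The kinase gene Jak3 (1.52), the beta-arrestin gene Arrb1 (0.74) and Itch, a ubiquitin ligase that sorts CXCR4 for degradation (0.74), were higher. A second Arrb1 probe set differed by -0.03 and a second Itch probe set by 0.10, and neither was called. The calls of the small GTPase gene Rac1 (0.64), the receptor kinase gene Grk5 (0.37) and the endosomal sorting gene Stam (-1.31) ended without single arrays, GFP-negative replicate 3 among them each time. Other probe sets of Grk5 (0.46) and Stam (-0.53) were called too, and lost their calls without single arrays. Others of Rac1 (-0.004) and Stam (-0.16) were not called. Vps4b, an endosomal ATPase gene, was the brightest that did not pass, at 662 ± 121 in GFP-positive and 495 ± 45.0 in GFP-negative cells, and it was called without GFP-positive replicate 3 (0.54).

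Regulators upstream of the axis were called higher for 4 and lower for 2 of 16 measured genes, against the 9.43% and 11.3% of all genes. The endothelial transcription factor genes Sox18 (3.51) and Sox17 (3.01) led, followed by the flow-responsive factor gene Klf2 (1.28) and the forkhead gene Foxc1 (0.82). This Sox18 probe set carries a cross-matching suffix, and the other Sox18 probe sets differed by 1.63 (called) and -0.003 (not called). The other Sox17 probe sets differed by 0.83 and 5.58, both called, and the 0.83 lost its call without single arrays. Sox17 also stands in the endothelial and arterial marker lists, and Foxc1 in the fibroblast one. Foxc1 was dim, at 14.8 ± 3.25 in GFP-positive and 1.39 ± 0.531 in GFP-negative cells, so its values may be background. Hif1a, encoding the hypoxia-inducible factor known to induce Cxcl12 and Cxcr4, averaged 1288 ± 466 in GFP-positive and 1321 ± 130 in GFP-negative cells (-0.11, adjusted p = 0.858, limma). Vegfa differed by -1.12 (adjusted p = 0.00334, limma), and its other probe sets differed by -1.69 (called) and -0.03 (not called). The call of Egln1, a prolyl hydroxylase that marks HIF for degradation (-0.40), was lost without any 1 of 4 arrays, each GFP-negative array among them, and its other 3 probe sets, not called, differed by 0.14, 0.33 and -0.02, the first and second with all GFP-positive arrays above all GFP-negative ones. Over the 6 lists, 17 of 133 measured genes were higher and 9 lower, where 9.43% of all genes were higher and 11.3% lower, and 18 of these 26 calls held with each array left out in turn. Of the 26 genes 15 had further probe sets, 27 in all, of which 9 were called in the same direction and none in the opposite one. Without GFP-positive replicate 3 the counts were 23 higher and 15 lower, and without GFP-negative replicates 1 or 3 there were 6 lower.

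**Figure D4:**
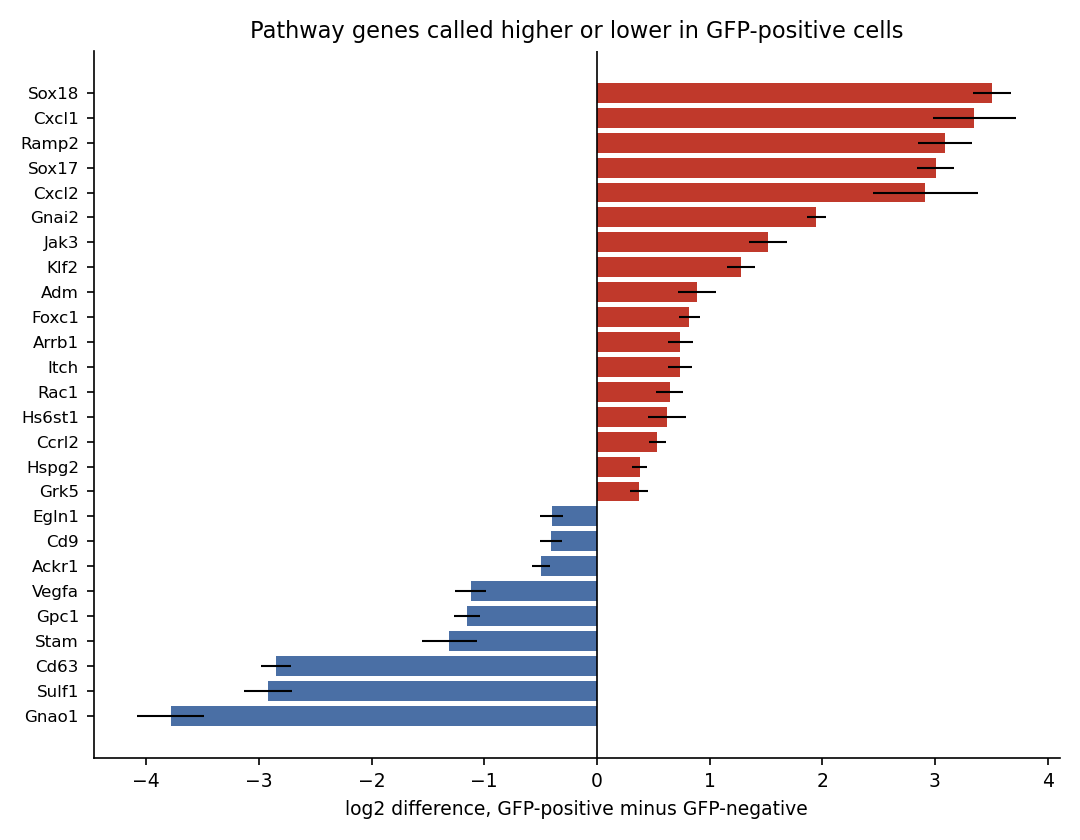
Log2 difference, GFP-positive minus GFP-negative (horizontal axis, bars from 0, error bars SE), of the 26 pathway genes called higher (red) or lower (blue). Sox18, Cxcl1, Ramp2 and Sox17 have the longest bars to the right (3.01 to 3.51), and Gnao1, Sulf1 and Cd63 the longest to the left (-3.78 to -2.85).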

How the data were processed

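Expression was measured on 18 arrays of 1 colour, 3 per population and chip. Each deposited table gives 1 linear intensity per probe set. The sources used here do not give how the authors summarised probes, corrected background or scaled arrays, and this could change every difference. Per the labels' protocols, RNA was amplified and labelled with biotin. The array medians of a chip differed by at most 0.13 on the log2 scale, so the values were kept as deposited.

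Groups and replicate numbers came from the sample titles. Each chip was fitted alone with limma 3.58.1 in R 4.3.3 (lmFit and eBayes, two-sided) on log2 of intensity plus 16, over 12422, 12411 and 11868 probe sets on chips A, B and C. P-values were adjusted by Benjamini-Hochberg within the chip. The fit was tested on simulated data. Arrays give no read depth, and their number limits the precision.

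Gene symbols came from the platform's annotation table, and probe sets with several symbols were left out of the genes and lists. In lists, a gene was measured by its brightest probe set on the first chip that held it. Every probe set of the axis is named. Each pathway list names up to 6 called genes per direction and the brightest not called, each marker list up to 3 per direction, and Tek and Ptprc were always included. Genes named because leaving out an array changed their call, and Dpp4, Hey1, Gja5, Notch4, Aif1, Cx3cr1 and Tyrobp, were chosen after their values were seen. Promoter letters come from RefSeq, GRCm38.p6. The members, lists and tests were chosen with earlier results of these data known. Alternatives changed the scaling (quantile or median centring), the pseudocount (1 or 64), the probe sets tested (no dim ones, or no cross-matching ones) and the fit (limma-trend with robust moderation, array weights, a block for replicate numbers). Others were p-values adjusted across the 3 chips, the probe set with the largest moderated t in lists, and each array left out in turn. Probe sets left out as cross-matching were all those with a suffix of f, s, r, g, i or x. Not every such suffix marks cross-matching. Figures were drawn with matplotlib 3.10.9.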

Additional observations from a re-analysis of the deposited data

How the results depend on the processing

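Of the 91 values of the 6 probe sets under the alternatives, 83 kept their direction and their side of the threshold. Cxcl12 162234_f_at was called under each alternative in which it was tested. Pseudocounts of 1 and 64 gave 4.54 and 2.62 for this probe set and 3.43 and 1.51 for Cxcl12 100112_at, all called. Left-out arrays gave 2.11 to 2.98 for Cxcl12 100112_at, 0.35 to 0.62 for Ackr3 and -0.36 to 0.30 for Cxcl12 160511_at, which changed sign without GFP-negative replicate 1 (0.30). Ackr3 was called with a pseudocount of 1 (0.81), with limma-trend (0.53) and with array weights (0.47). It was not called with quantile or median centring, a pseudocount of 64 or adjustment across the 3 chips. The cause was not tested. Over the 6 pathway lists 30 genes were higher with array weights, against 17, and left-out arrays gave 6 to 15 lower genes, against 9. Same-numbered arrays of chip A had correlated deviations of 0.29, -0.27 and -0.14. With 3 arrays per population these coefficients cannot show whether the replicate numbers pair the arrays. With the replicate block, Cxcl12 100112_at kept its difference of 2.52 (adjusted p = 0.0125, limma), Ackr3 its 0.53 (adjusted p = 0.108, limma), and 14 pathway genes were higher and 7 lower. Omitting dim probe sets left no value for Cxcr4, Ackr3 and the Cxcl12 probe sets 160511_at and 105704_at, and omitting cross-matching ones left none for 162234_f_at. Without detection calls, dim probe sets cannot be told from background.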
